A study of Thermothelomyces thermophilus with 18 samples.

Results

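Transcript levels of 3 genes were examined in Myceliophthora thermophila, a thermophilic cellulose-degrading fungus: the cellodextrin transporter genes cdt-1 (Mycth_43941) and cdt-2 (Mycth_114107), and Mycth_108044. The study's gene annotation describes cdt-2 and Mycth_108044 as sugar transporters, while for cdt-1 no description was at hand and its identity rests on its name. They were taken by locus tag from a table of 9109 genes, and all 3 were among the 8573 genes with enough reads to be tested. Transcripts were measured by RNA-seq in mycelium of the wild type MtWT (ATCC 42464) and of ΔMttrc-1, a mutant of it made with CRISPR-Cas9 that lacks a Cys2His2 transcription factor gene. Both strains were pregrown on 2% glucose for 16 h at 45 °C, washed, and moved to a new carbon source. The 6 groups, of 3 libraries each, were ΔMttrc-1 and MtWT after 6 h on 2% Avicel (crystalline cellulose), both strains after 4 h on 2% Avicel, and both after 4 h on 2% starch. The questions were how each transporter gene responded to the carbon source and whether that response differed in the absence of Mttrc-1. Whether the mutant libraries came from 1 transformant is not given in the sources used here.

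Cellulases cut cellulose outside the hypha into cellobiose and longer cellodextrins. In Neurospora crassa, a related fungus, CDT-1 and CDT-2 are membrane proteins of the major facilitator superfamily that import these oligosaccharides, and an intracellular β-glucosidase then splits them to glucose. The same transporters are known there to take part in signaling the presence of cellulose. The gene names cdt-1 and cdt-2 are used here as names of the M. thermophila loci, and transport itself was not measured.

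Total counts per library ranged from 17250057 to 24387079. The expression of the deleted gene is not analysed here, so the strain labels were not checked with it. The carbon source labels were checked with cellulase genes, and 4 of 4 rose on Avicel over starch in each strain at each Avicel time. Starch was sampled at 4 h only. Each 6 h Avicel value over starch was therefore set against starch at 4 h, where carbon source and time cannot be told apart. MtWT Avicel 4 h replicate 3 stood apart from the other libraries of its group, with a chi-square per degree of freedom of 35.0 and 42.0 against them, while the other pair gave 15.6. Smaller values also set apart ΔMttrc-1 Avicel 4 h replicate 1 (17.6 and 13.2, other pair 6.80). The same held for MtWT starch 4 h replicate 3 (10.9 and 11.1, other pair 2.59) and MtWT Avicel 6 h replicate 2 (5.59 and 6.66, other pair 2.61). Where leaving out MtWT Avicel 4 h replicate 3 changed a call or an overlap, or moved a value by over 1.5 times, the value without it is given too. Signs and calls that changed without any single library are given under the processing. A lower transcript level in all hyphae and a loss of transcript in some of them cannot be told apart in bulk mycelium.

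Levels are given in CPM (read counts of a gene relative to the TMM-scaled size of its library), which compare libraries for 1 gene, or in RPKM (counts relative to gene length and to the unscaled library total), which also compare genes. A gene was called changed at an adjusted p under 0.05 together with an absolute log2 fold change over 1. By this rule 1 of the 3 genes was called lower in ΔMttrc-1 than in MtWT at 6 h on Avicel (12.9% of all tested genes were), 2 of 3 at 4 h on Avicel (7.42% of all tested genes) and none on starch (3.86%). One of the 3 was called higher in ΔMttrc-1 on starch, where 4.12% of all tested genes were, and none was called higher on Avicel at 6 h (8.55%) or at 4 h (5.83%). Both cdt genes were called higher on Avicel than on starch at 4 h in each strain at each Avicel time. That call was made for 6.19% of tested genes in ΔMttrc-1 and 13% in MtWT at 6 h, and for 8.55% in ΔMttrc-1 and 9.95% in MtWT at 4 h. Mycth_108044 was called lower on Avicel than on starch in ΔMttrc-1, at 6 h (6.88% of tested genes) and at 4 h (8.42%), and not in MtWT at 6 h (10.5%) or at 4 h (9.8%). Between 6 h and 4 h on Avicel, 2 of the 3 genes were called higher at 6 h in ΔMttrc-1 (9.44% of tested genes) and none was called in MtWT (14.1% in either direction).

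**Figure D1:**
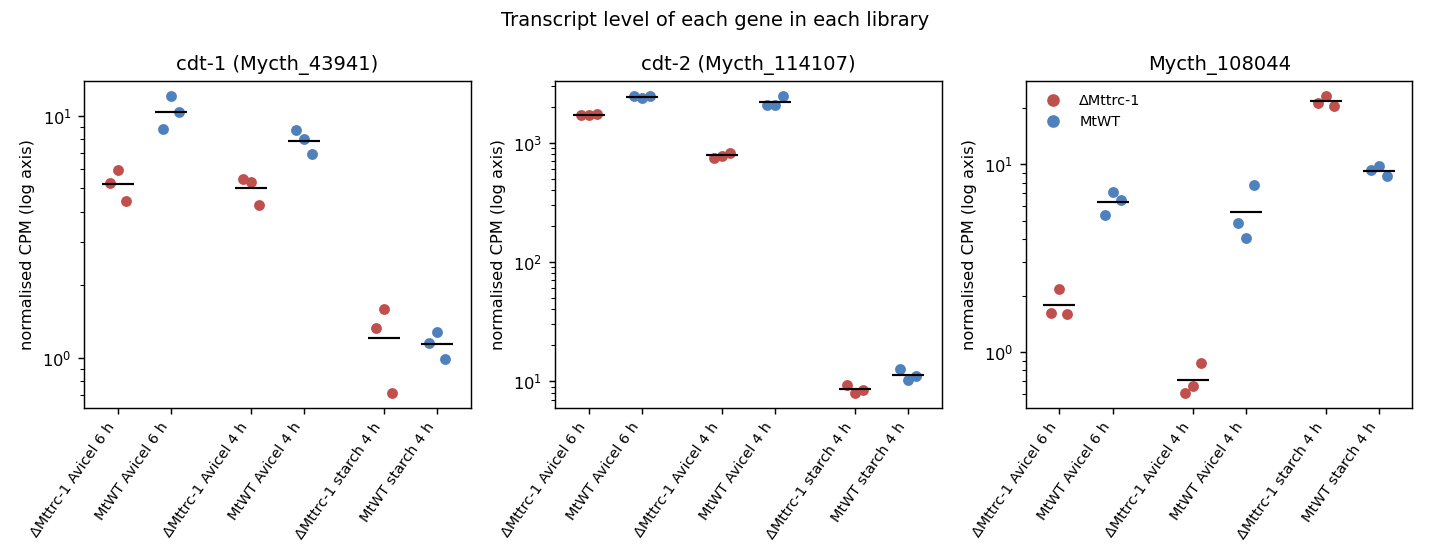
Normalised CPM (log axis) of cdt-1, cdt-2 and Mycth_108044 in each of the 18 libraries, with ΔMttrc-1 in red and MtWT in blue; each point is a library and each black bar the mean of 3. The cdt-2 libraries lie between 750.0 and 2466 CPM on Avicel and between 8.001 and 12.6 CPM on starch, and Mycth_108044 is the gene whose highest group is on starch.

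The gene cdt-2 was among the highly expressed genes on Avicel and was in the lower part of the transcriptome on starch. At 6 h on Avicel it reached 1695, 1715 and 1737 CPM in ΔMttrc-1, against 2466, 2389 and 2438 CPM in MtWT. At 4 h on Avicel it reached 750.0, 774 and 822 CPM in ΔMttrc-1, against 2080.1, 2057 and 2440.5 CPM in MtWT. On starch it reached 9.30, 8.001 and 8.41 CPM in ΔMttrc-1, against 12.6, 10.2 and 11.02 CPM in MtWT. The libraries of the 2 strains did not overlap in any condition, and the mutant libraries were the lower ones each time. Among all 9109 genes ranked by RPKM within a library, cdt-2 ranked 79 to 81 in ΔMttrc-1 and 114 to 128 in MtWT at 6 h, 381 to 409 in ΔMttrc-1 and 163 to 181 in MtWT at 4 h, and 6987 to 7153 in ΔMttrc-1 and 6636 to 6898 in MtWT on starch. From high to low by CPM the groups ran MtWT at 6 h, MtWT at 4 h, ΔMttrc-1 at 6 h, ΔMttrc-1 at 4 h, MtWT on starch and ΔMttrc-1 on starch. Only the 2 MtWT Avicel groups overlapped among these neighbours, through MtWT Avicel 4 h replicate 3.

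At 4 h, where both carbon sources were sampled, the carbon source made a larger difference to cdt-2 than the deletion did. In ΔMttrc-1 cdt-2 rose on Avicel over the 4 h starch group by 199.7-fold at 6 h (log2 fold change 7.64 ± 0.085, SE) and by 91.0-fold at 4 h (6.51 ± 0.082). In MtWT it rose by 215-fold at 6 h (7.75 ± 0.083) and by 194-fold at 4 h (7.60 ± 0.083). All 4 had an adjusted p of at most 3.47e-28 by edgeR's quasi-likelihood test. 

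On Avicel at 4 h cdt-2 fell by 2.80-fold in ΔMttrc-1 against MtWT, a log2 fold change of -1.49 ± 0.061 (SE; edgeR adjusted p = 4.29e-17). At 6 h the mutant averaged 1716 ± 20.8 CPM and MtWT 2431 ± 38.8 CPM (SD, n = 3 each), a log2 difference of -0.50 ± 0.059 (edgeR adjusted p = 3.14e-08), which is under the size threshold. This 6 h difference depended on the scaling. With library totals in place of TMM it was -0.15, where the median of all genes moved to 0.36, and over all settings the adjusted p reached 0.0526. On starch the log2 difference was -0.39 ± 0.090 (edgeR adjusted p = 5.59e-04), also under the size threshold, at 8.57 ± 0.663 CPM in ΔMttrc-1 and 11.3 ± 1.23 CPM in MtWT (SD, n = 3 each).

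The deletion effect on cdt-2 differed between conditions by a test of the difference itself. It was more negative at 4 h on Avicel than on starch, by -1.09 ± 0.11 on the log2 scale (edgeR adjusted p = 2.74e-09), a call made in this direction for 10.2% of tested genes. Between the Avicel times it was less negative at 6 h than at 4 h, by 0.98 ± 0.084 (edgeR adjusted p = 1.56e-10), just under the size threshold that 10.6% of tested genes passed in this direction. Leaving out single libraries gave 0.90, without MtWT Avicel 4 h replicate 3, to 1.03, and 3 such fits passed the threshold, those without ΔMttrc-1 Avicel 4 h replicate 3, MtWT Avicel 4 h replicate 1 or MtWT Avicel 4 h replicate 2. Within ΔMttrc-1, cdt-2 rose by 2.19-fold at 6 h over 4 h (log2 1.13 ± 0.060, edgeR adjusted p = 6.12e-15), and with library totals by 1.73 on the log2 scale, where the median of all genes was 0.64. Within MtWT the log2 difference between 6 h and 4 h was 0.15 ± 0.059 (edgeR adjusted p = 0.0278), and the times overlapped through 1 library, replicate 3 at 4 h. Without it the 4 h libraries lay below those at 6 h and the difference was 0.23 (edgeR adjusted p = 5.94e-05), still under the size threshold. With library totals it was 0.42, where the median of all genes was 0.28.

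The gene cdt-1 had the same direction of response to cellulose at a far lower level. At 6 h on Avicel it had 5.25, 5.94 and 4.45 CPM in ΔMttrc-1, against 8.76, 12.1 and 10.3 CPM in MtWT. At 4 h on Avicel it had 5.46, 5.30 and 4.28 CPM in ΔMttrc-1, against 8.68, 8.03 and 6.93 CPM in MtWT. On starch it had 1.32, 1.59 and 0.717 CPM in ΔMttrc-1, against 1.15, 1.28 and 0.992 CPM in MtWT. The strains were separate at both Avicel times, with the mutant lower, and overlapped on starch. These values rest on 64 to 220 counts per library on Avicel and 15 to 36 on starch, so they are far less precise than those of cdt-2, which had 11690 to 48553 counts per library on Avicel. From high to low by CPM the groups ran MtWT at 6 h, MtWT at 4 h, ΔMttrc-1 at 6 h, ΔMttrc-1 at 4 h, ΔMttrc-1 on starch and MtWT on starch, and the neighbours that overlapped were the 2 mutant Avicel groups and the 2 starch groups.

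Over the 4 h starch groups cdt-1 rose on Avicel by 4.26-fold in ΔMttrc-1 and 9.12-fold in MtWT at 6 h, and by 4.10-fold in ΔMttrc-1 and 6.91-fold in MtWT at 4 h (edgeR adjusted p at most 2.04e-08). The deletion effect on cdt-1 at 6 h on Avicel was -0.99 ± 0.17 on the log2 scale (edgeR adjusted p = 1.16e-05), so close to the size threshold that DESeq2, at -1.01, called it. Leaving out single libraries gave -1.10 to -0.87, with the call made without ΔMttrc-1 Avicel 6 h replicate 2 or MtWT Avicel 6 h replicate 1. With library totals it was -0.63, where the median of all genes was 0.36. At 4 h on Avicel it was -0.65 ± 0.19 (edgeR adjusted p = 0.00376). On starch it was 0.11 ± 0.27, with a 95% interval of -0.49 to 0.70 (edgeR adjusted p = 0.756), so a change of this size was not detectable at this depth. The difference between the deletion effects at 4 h on Avicel and on starch was -0.75 ± 0.33 (edgeR adjusted p = 0.0514), and it was called, at -1.002, without ΔMttrc-1 starch 4 h replicate 3, the lowest of its group. Without MtWT Avicel 4 h replicate 3 it was -0.84 (edgeR adjusted p = 0.0285), under the size threshold. Between 6 h and 4 h the deletion effects differed by -0.34 ± 0.25 (edgeR adjusted p = 0.238). Within a strain, 6 h and 4 h on Avicel differed by 0.05 ± 0.19 in ΔMttrc-1 (edgeR adjusted p = 0.801), where the libraries overlapped, and by 0.40 ± 0.17 in MtWT (edgeR adjusted p = 0.0405). Without MtWT Avicel 4 h replicate 3 the MtWT difference was 0.31 (edgeR adjusted p = 0.122).

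The sugar transporter gene Mycth_108044 had the opposite preference, with its highest level on starch. On starch it had 21.2, 23.2 and 20.6 CPM in ΔMttrc-1, against 9.35, 9.83 and 8.64 CPM in MtWT. At 6 h on Avicel it had 1.61, 2.16 and 1.60 CPM in ΔMttrc-1, against 5.34, 7.12 and 6.47 CPM in MtWT. At 4 h on Avicel it had 0.607, 0.662 and 0.870 CPM in ΔMttrc-1, against 4.88, 4.08 and 7.75 CPM in MtWT. The strains did not overlap in any condition, with the mutant the higher one on starch and the lower one on Avicel. From high to low the groups ran ΔMttrc-1 on starch, MtWT on starch, MtWT at 6 h, MtWT at 4 h, ΔMttrc-1 at 6 h and ΔMttrc-1 at 4 h, and of these neighbours the 2 MtWT Avicel groups overlapped, through 1 library. The highest MtWT value at 4 h on Avicel belongs to replicate 3, the library that stood apart in that group. The ΔMttrc-1 libraries at 4 h held 10 to 13 counts of this gene, and 10 counts carry an exact 95% Poisson interval of 4.80 to 18.4 counts, which covers counting error only.

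The deletion effect on Mycth_108044 had opposite signs on Avicel and on starch. It fell by 7.86-fold in ΔMttrc-1 against MtWT at 4 h on Avicel (log2 -2.98 ± 0.27, SE; edgeR adjusted p = 5.02e-10) and by 3.505-fold at 6 h (log2 -1.81 ± 0.20, edgeR adjusted p = 1.11e-08). With limma on log2(RPKM + 1), which understates changes at such low levels, the log2 values were -1.43 at 4 h and -1.004 at 6 h, both still called. On starch it rose by 2.34-fold (log2 1.23 ± 0.15, edgeR adjusted p = 1.11e-07). The difference between the deletion effects at 4 h on Avicel and on starch was -4.20 ± 0.31 (edgeR adjusted p = 8.80e-12). The effect was less negative at 6 h than at 4 h on Avicel, by 1.17 ± 0.37 (edgeR adjusted p = 0.00713). Without MtWT Avicel 4 h replicate 3 that last difference was 0.85, under the size threshold, and on the log2(RPKM + 1) scale it was 0.42 with an adjusted p of 0.0556 by limma.

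Avicel at 6 h and at 4 h was then compared with starch at 4 h within each strain for Mycth_108044. In ΔMttrc-1 it was 12.03-fold lower at 6 h on Avicel than on starch and 30.5-fold lower at 4 h (edgeR adjusted p at most 2.93e-15). In MtWT it was lower on Avicel by 0.55 ± 0.17 on the log2 scale at 6 h and by 0.73 ± 0.17 at 4 h (edgeR adjusted p = 0.00419 and 4.36e-04), both under the size threshold. The MtWT difference at 4 h was called at -1.04 without MtWT Avicel 4 h replicate 3, and at -1.27 with library totals, where the median of all genes was -0.60. The strains' responses at 4 h were compared by the same contrast as the deletion effects above (-4.20), and those at 6 h were not tested against each other. Between the Avicel times the gene rose by 2.53-fold at 6 h over 4 h in ΔMttrc-1 (log2 1.34 ± 0.31, edgeR adjusted p = 4.70e-04), and the MtWT difference was 0.17 ± 0.18 (edgeR adjusted p = 0.401). Without MtWT Avicel 4 h replicate 3 the MtWT libraries of the 2 times were separate and the difference was 0.49 (edgeR adjusted p = 0.0125), under the size threshold.

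**Figure D2:**
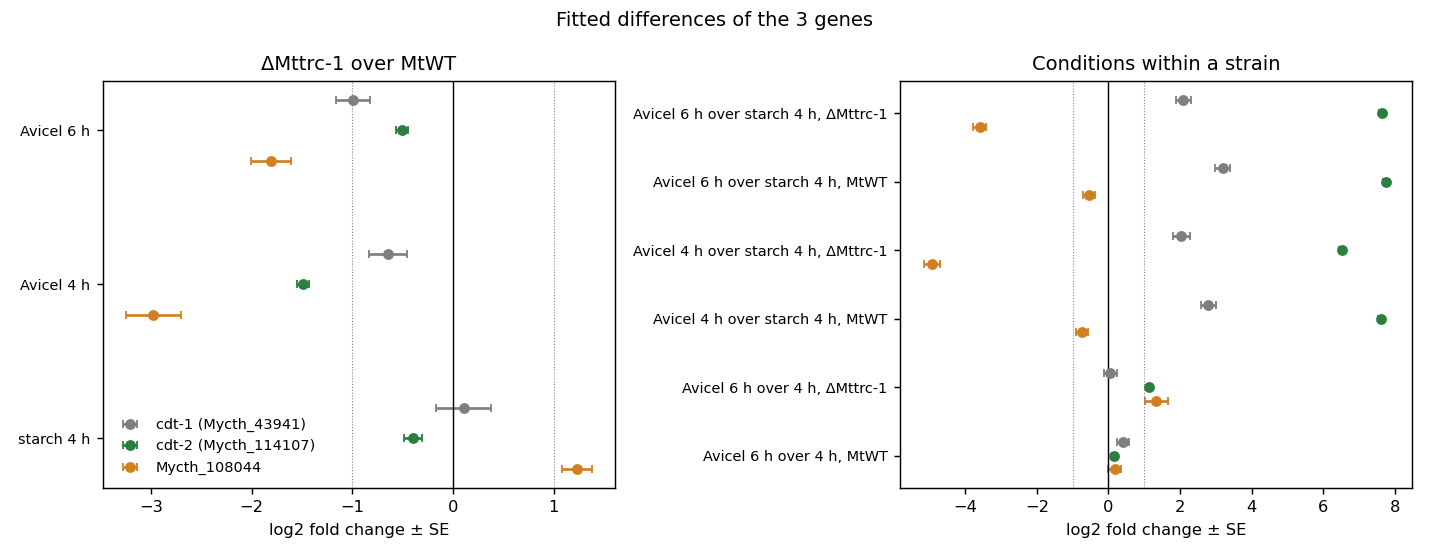
Fitted log2 fold changes with standard errors for the 3 genes, as ΔMttrc-1 over MtWT in each condition (left) and between conditions within a strain (right); dotted lines mark the size threshold of 1 in each direction. Mycth_108044 lies below 0 on Avicel and above 0 on starch in the left panel, and cdt-2 lies between 6.51 and 7.75 for Avicel over starch in the right panel.

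Because the cdt genes were compared between each other only per length, their RPKM values were set against each other within each library. On Avicel the RPKM of cdt-2 was 240 to 324 times that of cdt-1 in ΔMttrc-1 and 165 to 234 times in MtWT at 6 h, and 114 to 159 times in ΔMttrc-1 and 199 to 292 times in MtWT at 4 h. On starch it was 4.17 to 9.74 times that of cdt-1 in ΔMttrc-1 and 6.61 to 9.22 times in MtWT. On the log2 scale the mutant's ratio was higher than that of MtWT by 0.49 at 6 h on Avicel and lower at 4 h, with a difference of -0.83, and in both cases the 3 mutant libraries were separate from the 3 wild-type libraries. The exact two-sided permutation p was 0.10 for each (0.15 adjusted over the 3 conditions), the smallest that 3 libraries against 3 can give, so this test could not pass the threshold. On starch the ratios overlapped, with a difference of -0.41 (exact permutation p = 0.40).

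**Figure D3:**
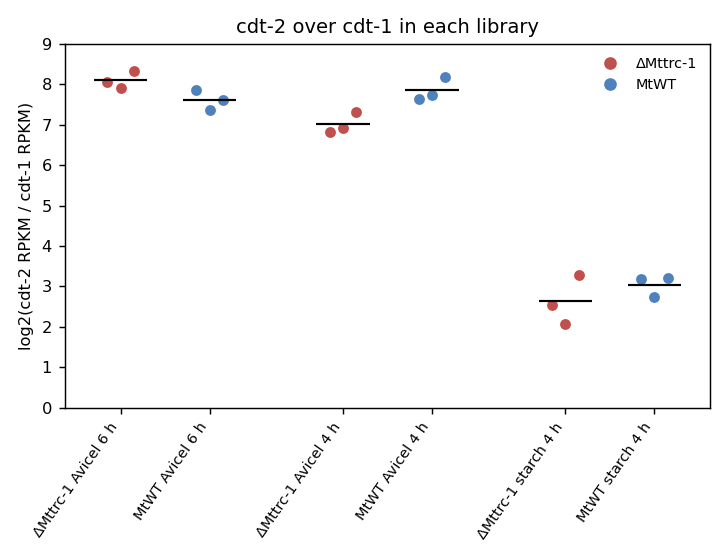
Log2 ratio of cdt-2 to cdt-1 RPKM in each library, with ΔMttrc-1 in red and MtWT in blue; bars are means of 3. The ΔMttrc-1 points average 8.10 at 6 h and 7.02 at 4 h on Avicel, against 7.61 and 7.85 in MtWT, and both strains lie under 3.3 on starch.

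Among 15 genes, these 3 and 12 others described as sugar transporters in the portion of the study's annotation at hand, cdt-2 had the highest RPKM in every Avicel library. It held 76.0% to 76.4% of their summed RPKM in ΔMttrc-1 and 78.4% to 79.8% in MtWT at 6 h on Avicel. At 4 h it held 46.7% to 47.1% in ΔMttrc-1 and 76.8% to 78.5% in MtWT. On starch it held 0.872% to 1.02% in ΔMttrc-1 and 0.929% to 1.15% in MtWT and ranked 8 to 10 of the 15. Mycth_108044 ranked last of the 15 in each ΔMttrc-1 library at 4 h on Avicel, and 8 in each ΔMttrc-1 library on starch, with 9 to 10 in MtWT. The gene cdt-1 held under 0.5% of the sum in every library.

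The other 12 transporters did not share 1 direction. In ΔMttrc-1 against MtWT at 6 h on Avicel 4 of 12 were called lower and 1 higher (median log2 -0.01, against 0.01 over all tested genes), and at 4 h 1 was lower and 1 higher (median -0.17, against -0.02). On starch none of the 12 was called (median 0.05, against -0.01). Of all tested genes, 12.9% were called lower and 8.55% higher at 6 h, and 7.42% lower and 5.83% higher at 4 h. The shares on starch were 3.86% lower and 4.12% higher. At 4 h the counts of the 12 were close to these shares. At 4 h the extremes were Mycth_104673, which fell by 2.82 on the log2 scale in ΔMttrc-1, and Mycth_108924, which rose by 3.54. On Avicel the fall of Mycth_104673 at 6 h was -2.38 ± 0.18. The deletion effect on Mycth_108924 at 6 h minus that at 4 h was -3.66 on the log2 scale, against 0.98 for cdt-2.

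**Figure D4:**
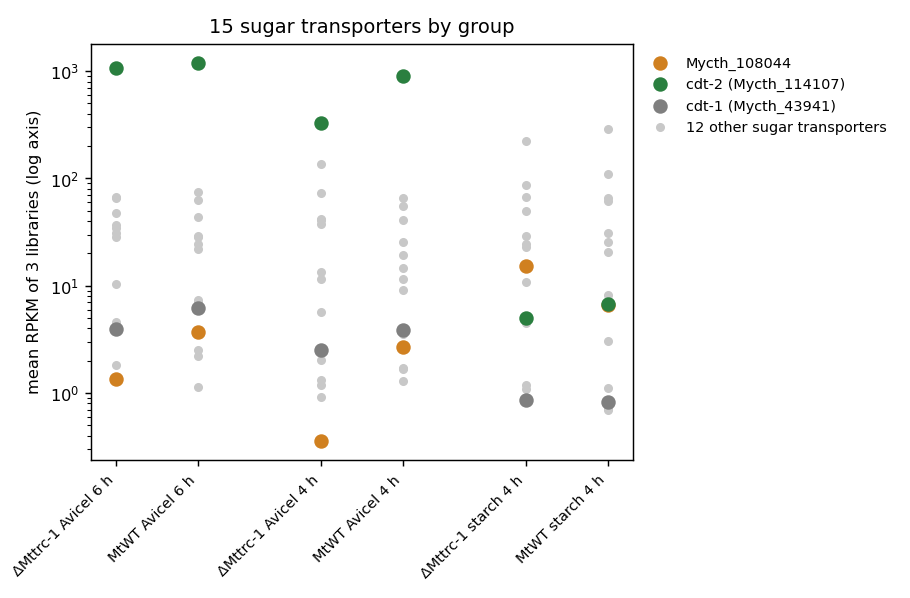
Mean RPKM of 3 libraries (log axis) for 15 sugar transporter genes in the 6 groups, with cdt-1, cdt-2 and Mycth_108044 in color and 12 others in grey. On Avicel cdt-2 is the highest point of each group, at 1078 RPKM in ΔMttrc-1 and 1194 RPKM in MtWT at 6 h, and on starch it averages 5.06 RPKM in ΔMttrc-1 and 6.71 RPKM in MtWT.

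Genes of cellulose and starch breakdown were set beside these values. The lists were not sorted by whether an enzyme acts inside or outside the hypha. The 4 cellulases, which release cellodextrins, were called lower in ΔMttrc-1 than in MtWT in 4 of 4 cases at 6 h (median log2 -2.14) and at 4 h (median -1.49) on Avicel, and in 3 of 4 on starch (median -1.52). The 4 lytic polysaccharide monooxygenases (LPMOs), which cleave crystalline cellulose oxidatively, were called lower in 4 of 4 cases at 6 h (median -3.75) and 4 h (median -2.40). On starch 3 of the 4 LPMOs were lower and Mycth_80312 was higher, by 1.76. The 3 lower ones were near the floor there in ΔMttrc-1, with means of 0.204 to 0.928 CPM. In MtWT their means on starch were 0.727 to 4.58 CPM, so these starch calls rest on few counts. Of 5 β-glucosidases and cellobiose dehydrogenases, which use cellobiose, 3 were called lower at 6 h (median -1.15), 4 at 4 h (median -2.10) and none on starch (median -0.47). The β-glucosidase gene gh1-1 (Mycth_115968) had a log2 difference of -0.88 ± 0.066 at 6 h and fell by 1.47 at 4 h in ΔMttrc-1, beside -0.50 and -1.49 for cdt-2. It is among the 5 genes most like cdt-2 in level, listed below, and was not chosen apart from that likeness. The 5 genes of its own list ran from -2.32 (Mycth_111388) to 0.70 (Mycth_2059579) at 6 h. At 4 h they ran from -2.81 (Mycth_66804) to -0.25 (Mycth_2059579). Of 3 starch-degrading genes, 1 was called higher and 1 lower in ΔMttrc-1 at 6 h on Avicel, none at 4 h and 2 lower on starch. Over all tested genes 12.9% were called lower at 6 h, 7.42% at 4 h and 3.86% on starch. The paper names the listed cellulases and LPMOs as lower in ΔMttrc-1 on Avicel, from the same libraries. It also names the β-glucosidase gene Mycth_66804 and the cellobiose dehydrogenase gene Mycth_81925 as lower there. The cellulases and LPMOs called lower on starch are among the genes it names as lower on both carbon sources. It names the 2 starch-degrading genes called lower on starch in the same way. Those counts therefore give no independent support. The 2 control genes, actin and tef-1, were not called in any deletion comparison.

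**Figure D5:**
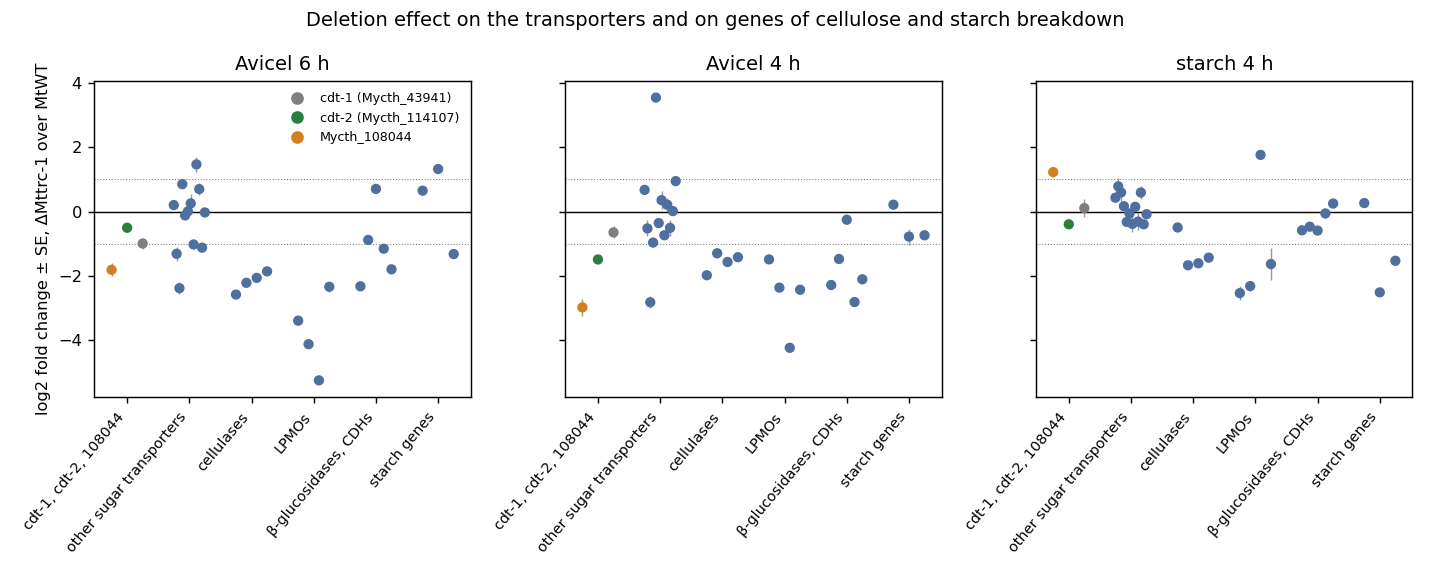
Log2 fold change with standard error, ΔMttrc-1 over MtWT, of the 3 transporter genes, 12 other sugar transporters, cellulases, LPMOs, β-glucosidases with cellobiose dehydrogenases (CDHs) and starch genes, in each condition; each point is a gene and dotted lines mark 1 in each direction. The 4 cellulases lie under -1 at both Avicel times, where cdt-2 lies at -0.50 at 6 h and -1.49 at 4 h.

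The genes whose levels were most like those of each transporter gene were ranked by Pearson's r of log2 CPM over the 18 libraries, given as a description without a test since the libraries share carbon source, strain and a narrow range of depth. The Avicel and starch libraries formed separate clusters, so r over the 12 Avicel libraries is given as well. Within Avicel it was 0.84 to 0.91 for the 5 genes most like cdt-1 and 0.90 to 0.96 for the 5 most like Mycth_108044. For cdt-2 the 5 highest were Mycth_62925 (0.997), Mycth_2063480 (0.993), annotated as a GH61 protein, the family now called LPMOs, Mycth_84164 (0.992), gh1-1 (0.990) and Mycth_2304419 (0.986). Within Avicel their r was 0.91, 0.86, 0.72, 0.79 and 0.55. For cdt-1 they were Mycth_89872 (0.975), Mycth_2124220 (0.974), the cellobiose dehydrogenase gene Mycth_81925 (0.974), Mycth_2302859 (0.971) and Mycth_116553 (0.970), annotated as a xylanase. For Mycth_108044 they were Mycth_114083 (0.969), Mycth_2118780 (0.963), Mycth_2306772 (0.955), Mycth_2142698 (0.953) and Mycth_2306396 (0.950). Mycth_108044 and cdt-2 had r = -0.63 over the 18 libraries and 0.94 within the 12 Avicel libraries, where both had their lowest levels in ΔMttrc-1 at 4 h. The r of cdt-1 with cdt-2 was 0.96 over the 18 libraries and 0.71 within Avicel.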

How the data were processed

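RNA-seq counts per gene were deposited by the authors, who per the labels mapped reads with TopHat2 2.0.8b and counted them with HTSeq 0.5.4p2. Other versions of these tools appear in the study's methods. No build name or strand setting was given in the sources used here. Reads from overlapping or antisense genes cannot be told apart. The deposited RPKM values are the counts per gene length and library total. Groups came from the sample titles. The study describes the 3 libraries per group as independent biological replicates. For MtWT replicate 3 the labels also carry the name of replicate 2.

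The count analysis used edgeR 4.0.16 in R 4.3.3 (TMM scaling, filterByExpr, glmQLFit and glmQLFTest over all 6 groups). P-values were adjusted by Benjamini-Hochberg over the 8573 genes that passed the filter, 536 having been left out. Called genes had adjusted p under 0.05 and an absolute log2 fold change over 1. Alternatives used DESeq2 1.42.0, limma 3.58.1 on log2(RPKM + 1) and log2(RPKM + 0.1), other scalings, no filter, the compared groups alone, a replicate block and single libraries left out. The analysis was tested on simulated data. Named genes were the 3 transporter genes, the extremes of the lists fixed by locus tag (12 other sugar transporters, 4 cellulases, 4 LPMOs, 5 β-glucosidases and cellobiose dehydrogenases, 3 starch genes and 2 control genes), and the 5 genes with the highest r for each. The members and lists were chosen with earlier results of these data known. Intervals of single counts cover counting error only. Ratios were tested in SciPy 1.17.1.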

Additional observations from a re-analysis of the deposited data

Results flagged for a closer look

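The deletion effect on cdt-2 and on Mycth_108044 differed between conditions at an adjusted p under 0.05, by a test of the difference itself. For cdt-2 the log2 effect at 4 h on Avicel minus that on starch was -1.09 (edgeR adjusted p = 2.74e-09), and the effect at 6 h minus that at 4 h on Avicel was 0.98 (edgeR adjusted p = 1.56e-10), which is under the size threshold and was not called. For Mycth_108044 the same differences were -4.20 (edgeR adjusted p = 8.80e-12) and 1.17 (edgeR adjusted p = 0.00713). Among all tested genes 10.2% were called lower for the first difference and 10.6% higher for the second. The second difference for Mycth_108044 was 0.85 without MtWT Avicel 4 h replicate 3, and 0.42 by limma on log2(RPKM + 1) with an adjusted p of 0.0556, and neither was called. The sign of the Mycth_108044 effect was opposite on Avicel and on starch, and the 3 libraries of each strain were separate in all 3 conditions.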

How the results depend on the processing

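The replicate numbers showed no pairing of the samples, since 0 of 45 same-numbered pairs correlated over 0.1 (mean r -0.0064). Of 90 pairs with different numbers 2 did. They joined MtWT Avicel 4 h with MtWT starch 4 h, replicate 1 with 3 (r = 0.19) and 3 with 1 (r = 0.17). Whether libraries shared a batch under other numbers was not tested. With a replicate block 1135, 1842 and 678 genes were called for the deletion effect at 4 h and 6 h on Avicel and on starch, and no call of the 3 genes changed. Of 264 results of these genes under settings other than leaving out a library, 253 kept direction and side of the threshold, 3 were weaker, 8 stronger and none reversed. With library totals the median of all genes moved by 0.36 in the 6 h deletion comparison, by -0.60 in MtWT and -0.56 in ΔMttrc-1 for Avicel at 4 h over starch, by -0.29 in MtWT for Avicel at 6 h over starch, by 0.28 in MtWT and 0.64 in ΔMttrc-1 for 6 h over 4 h, and by 0.34 in the difference of deletion effects between 6 h and 4 h. Under it Mycth_108044 was called lower on Avicel at 4 h over starch in MtWT (-1.27), and the 6 h minus 4 h deletion effect on cdt-2 was called (1.31). The genes called were then 2846 against 1693 for Avicel at 4 h over starch in MtWT, 2329 against 1455 in ΔMttrc-1, and 2832 against 1628 for 6 h over 4 h in ΔMttrc-1. The deletion effect on cdt-1 at 6 h was called with RLE factors (-1.01) and with DESeq2 (-1.01).

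On log2(RPKM + 1) with limma, cdt-1 for Avicel at 4 h over starch in ΔMttrc-1 (0.93), and Mycth_108044 for 6 h over 4 h in ΔMttrc-1 (0.79) and for the 6 h minus 4 h deletion effect (0.42), were not called, while Mycth_108044 for Avicel at 4 h over starch in MtWT (-1.06) and the 6 h minus 4 h deletion effect on cdt-2 (1.31) were. With a pseudocount of 0.1 those last values were -1.30 and 1.31, and the genes called were 2801, 2279 and 2796 in the 3 comparisons named above. Low levels of cdt-1 and Mycth_108044 make log2(RPKM + 1) changes smaller by construction, as for cdt-1 on Avicel over starch in MtWT (1.97 at 6 h and 1.42 at 4 h) and for the Mycth_108044 deletion effect at 4 h on Avicel minus that on starch (-2.53). RPKM is not TMM-scaled, and the calls of Mycth_108044 and cdt-2 gained here were also made with library totals. The cause of the other shifts was not tested.

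Leaving out 1 library at a time gave a changed sign or call for these results. The cdt-1 effect ranged from -0.050 to 0.15 for 6 h over 4 h in ΔMttrc-1, from -0.12 to 0.36 for the deletion on starch, from -1.10 to -0.87 for the deletion at 6 h, and from -1.002 to -0.52 for Avicel at 4 h minus starch. The range for Mycth_108044 was -0.0054 to 0.49 for 6 h over 4 h in MtWT, -1.04 to -0.55 for Avicel at 4 h over starch in MtWT, and 0.85 to 1.34 for the 6 h minus 4 h deletion effect. That effect on cdt-2 ranged from 0.90 to 1.03. The log2 ratio of cdt-2 to cdt-1, ΔMttrc-1 minus MtWT, kept its sign, ranging without single libraries from 0.36 to 0.62 at 6 h, from -0.98 to -0.66 at 4 h and from -0.74 to -0.13 on starch. Depth limits cdt-1 and Mycth_108044, whose libraries held as few as 15 and 10 counts.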

Other observations

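The genes next to each transporter gene in the order of the RefSeq assembly ASM22609v1 were looked up after the values of the 3 genes were seen. Of the 18 genes within 3 positions on either side, 14 were tested. In ΔMttrc-1 against MtWT, 5 of the 14 were called at 6 h on Avicel, 2 at 4 h and 1 on starch. At 4 h these were Mycth_2295445 beside cdt-1, which was lower (log2 -1.36; 7.42% of all tested genes were called lower), and Mycth_2307236 near Mycth_108044, which was higher (1.82; 5.83% were called higher). Of the 5 called at 6 h, Mycth_2030361 (1.22), Mycth_2295444 (-2.55) and Mycth_2313501 (-1.47) lie near cdt-1, Mycth_43484 (1.23) near cdt-2 and Mycth_2307236 (-1.40) near Mycth_108044. On starch it was Mycth_91240 near cdt-1 (-1.47). Of all tested genes, 12.9% were called lower and 8.55% higher at 6 h, and 3.86% lower and 4.12% higher on starch. Mycth_43484 was near the floor at 6 h, with a mean of 0.934 CPM in ΔMttrc-1 and 0.401 CPM in MtWT.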
